A study of Mus musculus with 18 samples.

Results

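The chondrogenic and mineralization genes described here are a list of 10 genes, picked by symbol for their known roles in cartilage and in the control of mineral deposition, out of 35655 genes in the count table. They are Col2a1, Acan, Comp and Chad, which encode cartilage matrix proteins, Sox9 and Runx2, which encode the transcription factors that lead cartilage and bone formation, and Mgp, Enpp1, Ank and Alpl, which encode proteins that hold back or permit calcification. All 10 genes passed the filter on low counts, as did 10312 genes in all, although Col2a1, Chad, Runx2 and Alpl passed with no count in some libraries. RNA came from laser-dissected carotid arteries of wild-type C57/BL6 mice, the tissue being cut so that it held the outer elastic lamina and the neointima, the new inner layer that grows after injury. There were 4 libraries of vessels before injury (day 0), and 4, 3, 4 and 3 libraries of vessels taken 7, 14, 21 and 28 days after a wire was passed through them, in young adult males of the same genotype and strain, with no further treatment. Every library was read by nanoMACE-seq, which counts the 3′ ends of polyadenylated transcripts with molecular identifiers. Each label carries 1 mouse number while the study calls the libraries pooled, and the p-values measure the spread between these libraries.

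Cartilage cells are driven by SOX9, which turns on the genes of collagen II and of aggrecan, the proteoglycan that holds water in cartilage, and RUNX2 drives the later step towards bone. Arteries are normally kept free of mineral by matrix Gla protein and by pyrophosphate, which ENPP1 makes outside the cell, ANK helps to release, and the tissue-nonspecific alkaline phosphatase encoded by Alpl breaks down. Vascular smooth muscle cells can take on cartilage-like and bone-like features in diseased vessels, and Mgp is abundant in the normal arterial wall.

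Library totals ran from 440675 to 878310 counts, with a median of 659166, so that 3 counts, the floor used here for a gene without a count, stood for 3.55 to 6.98 CPM depending on the library. CPM are counts scaled from the TMM-adjusted library total to the same size in every library, and they are a level relative to the other RNA in the same library. Floors and intervals cover counting error only. Because the tissue was taken in bulk, fewer cells of a type and less RNA per cell cannot be told apart. The makeup of the tissue moved with the day. Over the contractile smooth muscle list, 9 of 9 tested genes were lower on day 7, where 8.53% of all tested genes were called lower. Its summed levels were 33598 to 38568 CPM on day 0 and 1720 to 7273 CPM on day 7. They were 7807 to 24288 on day 14, 8904 to 22393 on day 21 and 20859 to 29309 on day 28. Over the macrophage list, 10 of 10 tested genes were higher on days 7, 14 and 21 and 3 on day 28. Of all tested genes, 11.3%, 4.8%, 5.92% and 0.97% were called higher on these days. Summed levels of the macrophage list were 102 to 512 CPM on day 0 and 4521 to 6688 on day 7. They were 1219 to 2783 on day 14, 1794 to 3356 on day 21 and 763 to 1085 on day 28. The part of these shifts in the results below was not tested.

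A pair of libraries stood apart, day 14 replicate 2 and day 21 replicate 1, in genes of cartilage, of bone and of skeletal muscle together. All 8 genes of the skeletal muscle list had counts in both, with summed levels of 351 and 331 CPM, against 0 to 89.8 CPM in the other 16 libraries, where day 7 replicate 2 was the highest. Acta1, the skeletal muscle actin, had 61 counts in day 14 replicate 2 and 133 in day 21 replicate 1, and 0 to 22 in the others. Ibsp, which encodes bone sialoprotein, had 86 and 321 counts in these libraries, and Sp7, an osteoblast transcription factor, had 3 and 14. Day 28 replicate 2 shared part of this, with 41 counts of Ibsp and 34 of Col11a2, a cartilage collagen, and no count of any of the 8 skeletal muscle genes. These genes were not confined to the pair, since day 21 replicate 4, with 14.0 CPM of skeletal muscle genes, had 50 counts of Ibsp and 6 of Sp7. In a fit without the pair, chosen after seeing the data, Chad was too rare to test. Against day 0, the calls lost in that fit were those of Col2a1 on day 21 (adjusted p = 0.308), Comp on day 14 (0.243), Sox9 on days 7 and 21 (0.0659 and 0.183), Runx2 on days 7, 14 and 21 (0.0599, 0.176 and 0.0629), and Acan and Mgp on day 28 (0.0554 and 0.0637). Col2a1 was then called on day 28 (0.0360). Over all tested genes, the calls on day 14 also went down in that fit, from 641 of 10312 to 215 of 10776. On day 7 they went from 2041 of 10312 to 1914 of 10776.

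The starts of the genes that moved are shown so that their letters can be read beside the measurements. The RefSeq table for GRCm38.p6 held windows for Acan, Chad, Runx2, Enpp1, Ank and Alpl, and not for Col2a1, Comp, Sox9 or Mgp. The 250 bases before the annotated start are printed 5′ to 3′ on the gene's strand for the genes whose level changed, in lower case, with capitals for matches to SOX letters (ACAATG or ACAAAG), RUNX letters (TGTGGT) or TATA letters (TATAAA), each searched on both strands, with no overlap between matches in the windows shown. Acan lies at chr7:79052976-79053225 on the plus strand, Chad at chr11:94564797-94565046 on the plus strand, Runx2 at chr17:44814628-44814877 on the minus strand, and Alpl has 2 starts on the minus strand, the outer at chr4:137796385-137796634 and the inner at chr4:137766476-137766725.
Acan: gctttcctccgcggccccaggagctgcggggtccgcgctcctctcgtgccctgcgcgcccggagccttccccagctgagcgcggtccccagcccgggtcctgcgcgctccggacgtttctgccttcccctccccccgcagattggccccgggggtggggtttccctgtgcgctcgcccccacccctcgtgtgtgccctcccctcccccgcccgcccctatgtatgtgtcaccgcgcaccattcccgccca
Chad: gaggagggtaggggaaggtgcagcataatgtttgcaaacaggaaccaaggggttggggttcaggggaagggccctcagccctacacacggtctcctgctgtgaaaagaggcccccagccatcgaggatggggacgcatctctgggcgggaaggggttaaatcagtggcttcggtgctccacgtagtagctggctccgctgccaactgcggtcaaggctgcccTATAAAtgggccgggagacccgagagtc
Runx2: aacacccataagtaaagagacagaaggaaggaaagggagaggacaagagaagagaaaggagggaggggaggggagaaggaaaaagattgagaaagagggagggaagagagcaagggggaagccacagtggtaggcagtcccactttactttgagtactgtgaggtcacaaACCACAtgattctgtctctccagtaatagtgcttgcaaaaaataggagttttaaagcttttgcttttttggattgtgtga
Alpl, outer start: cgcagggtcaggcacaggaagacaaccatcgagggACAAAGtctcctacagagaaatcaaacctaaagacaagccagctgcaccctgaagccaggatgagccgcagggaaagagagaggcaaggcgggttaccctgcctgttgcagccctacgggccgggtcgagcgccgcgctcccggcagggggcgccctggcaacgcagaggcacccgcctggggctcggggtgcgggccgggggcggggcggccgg
Alpl, inner start: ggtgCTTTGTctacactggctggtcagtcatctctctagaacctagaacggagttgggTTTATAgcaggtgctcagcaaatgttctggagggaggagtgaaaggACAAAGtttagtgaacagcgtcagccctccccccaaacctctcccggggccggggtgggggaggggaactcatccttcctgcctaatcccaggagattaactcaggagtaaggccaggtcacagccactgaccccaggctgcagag
SOX letters occurred in 25.2% of 32851 promoter windows of this length, RUNX letters in 14.0% and TATA letters in 12.4%. Acan held none of these letters and was 74.4% G and C. Chad held the TATA letters close to its start, Runx2 held RUNX letters on the opposite strand, and Alpl held SOX letters once at the outer start and at 2 places at the inner start, beside TATA letters on the opposite strand. Enpp1 held RUNX letters once and Ank held none of the letters searched. A match is a description of the sequence, and no match says only that these letters are not in this window.

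**Figure D1:**
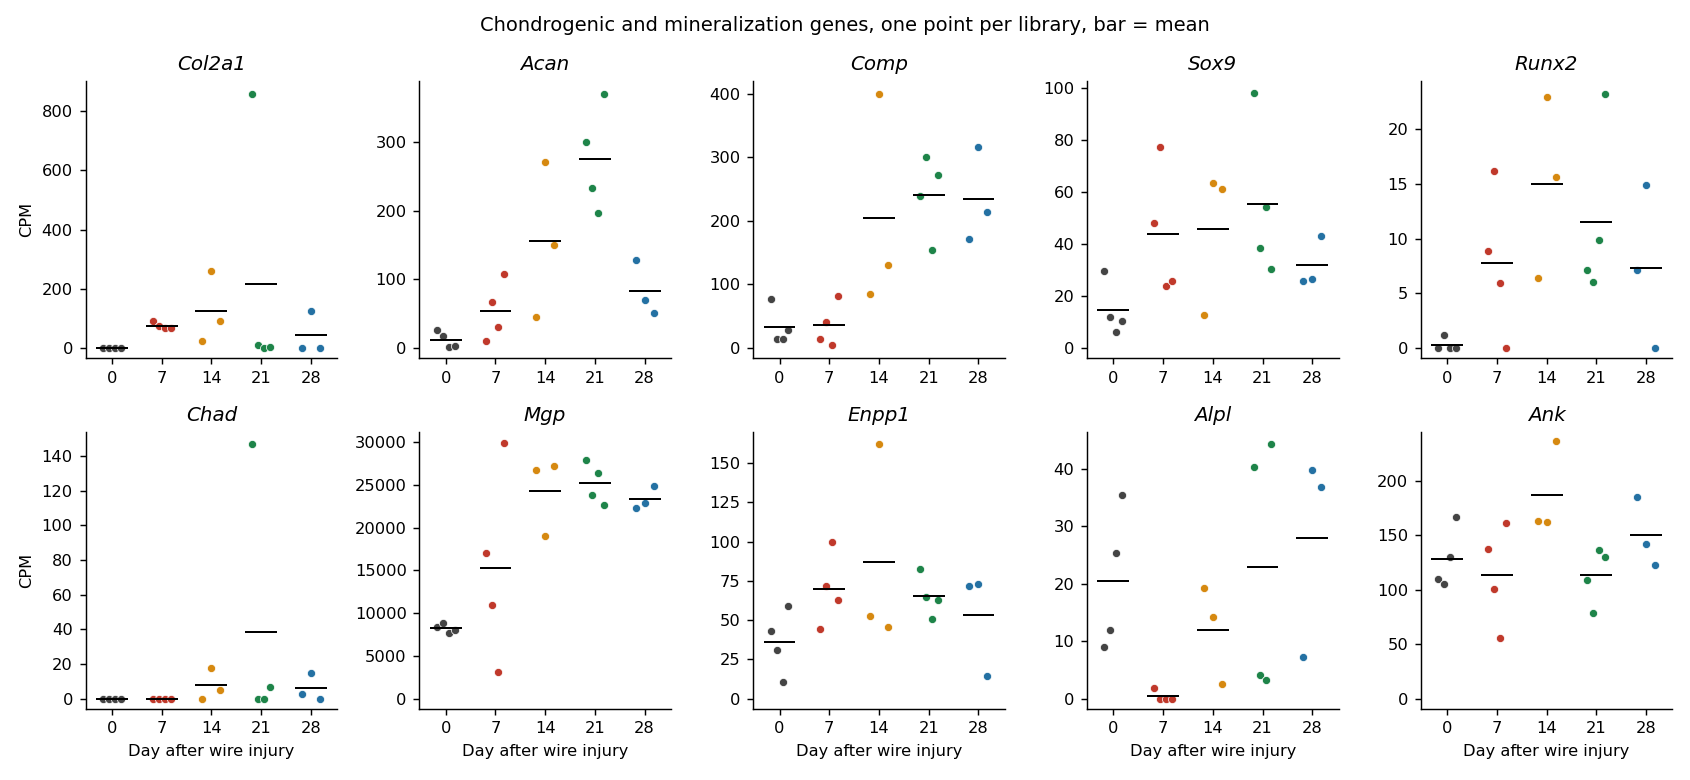
Level of each of the 10 genes in CPM (y axis, linear, one scale per gene) by day after wire injury (x axis), with 1 point per library and a bar at the day's mean. Mgp, Comp and Acan lay above every day 0 library on days 14, 21 and 28, Alpl was close to 0 on day 7 alone, and the day 21 means of Col2a1 and Chad rest on 1 library each.

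Against day 0, the list moved mostly upwards, with Acan, Comp and Mgp the genes that stayed high to day 28. Genes are called here at an adjusted p under 0.05 in edgeR's quasi-likelihood test, with Benjamini-Hochberg adjustment over 10312 genes. On day 7, 4 of the 10 genes were higher (Col2a1, Acan, Sox9 and Runx2), where 11.3% of all tested genes were called higher, and 1 was lower (Alpl), where 8.53% were called lower. On day 14, 5 were higher (Col2a1, Acan, Comp, Runx2 and Mgp) against a background of 4.8%, and on day 21, 7 were higher (these 5 with Sox9 and Chad) against 5.92%. On day 28, 3 were higher (Acan, Comp and Mgp) against 0.97%, and none was called lower on days 14, 21 or 28 (1.42%, 2.93% and 0.369% of all genes). Enpp1 and Ank were called on no day. All 4 comparisons share the day 0 libraries, and the genes were picked as a list with known results, so that the counts describe the list. The median log2 fold change over the 10 genes was 0.91, 1.61, 2.40 and 1.31 on days 7, 14, 21 and 28, with Col2a1 and Chad set at their lower bounds, while the median over all tested genes was 0.07, 0.05, 0.07 and -0.01.

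Counted by libraries, 1 of the 10 genes lay above every day 0 library in every library of day 7 (13.6% of all genes), 5 on day 14 (10.7%), 5 on day 21 (9.31%) and 3 on day 28 (4.88%). Alpl alone lay below every day 0 library on day 7 (9.71%). An F test for any difference among the 5 days called 6 genes, Acan, Comp, Mgp, Alpl, Chad and Col2a1, where 18% of all genes were called. For the other 4 the adjusted p of that test was 0.0943 for Runx2, 0.105 for Sox9, 0.326 for Ank and 0.398 for Enpp1.

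**Figure D2:**
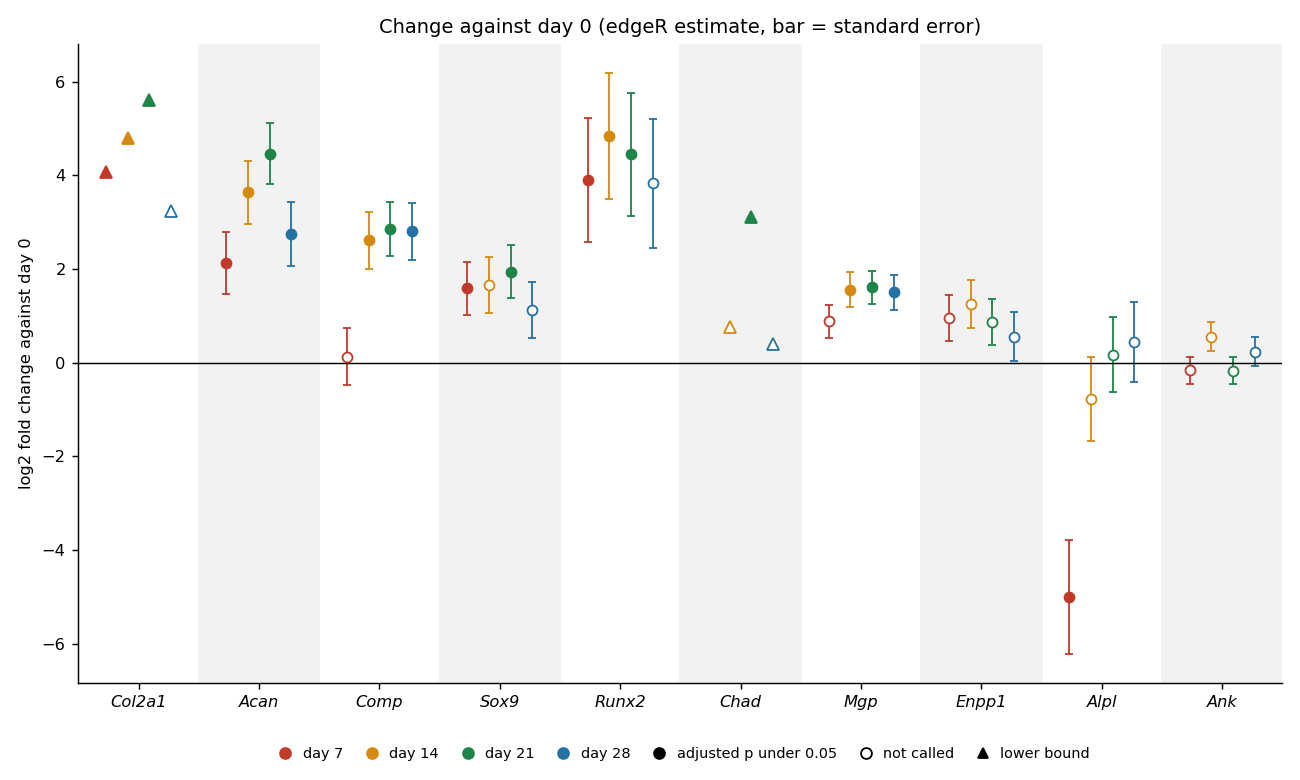
Log2 fold change against day 0 (y axis) for each gene (x axis) on days 7, 14, 21 and 28. Circles give the edgeR estimate with a standard error derived from its F statistic, and triangles a lower bound where day 0 held no count. Filled symbols mark an adjusted p under 0.05. Chad on day 7 is not drawn because both days were at 0 counts, and Alpl on day 7, at -5.00, is the single filled symbol below 0.

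Sox9, the gene of the transcription factor that directs cartilage formation (chr11:112673009-112678586, GRCm39), rose moderately on days 7 and 21. Its level was 29.8, 11.9, 5.96 and 10.5 CPM in the day 0 libraries, and 48.1, 77.3, 23.9 and 25.8 CPM on day 7. It was 12.8, 63.5 and 61.3 CPM on day 14, then 98.2, 38.4, 54.3 and 30.3 CPM on day 21 and 25.9, 26.5 and 43.1 CPM on day 28. The day 21 libraries all lay above the highest day 0 library, while on each other day at least 1 library lay within the day 0 range. The log2 fold change was 1.59 ± 0.56 (SE) on day 7 (adjusted p = 0.0483), 1.65 ± 0.59 on day 14 (0.108), 1.94 ± 0.56 on day 21 (0.0292) and 1.13 ± 0.60 on day 28 (0.393). By mean level the days were ordered 0, 28, 7, 14 and 21, and no pair of neighbours in that order passed the test. The day 7 call lay close to the threshold and was lost in 11 of 18 fits that each left out 1 library, namely day 0 replicates 2, 3 and 4, day 7 replicates 1 and 2, day 14 replicates 2 and 3, day 21 replicates 2, 3 and 4, and day 28 replicate 1, the weakest being 0.247 without day 7 replicate 2 (0.013 to 0.313 over 29 alternatives). On day 14 the call was gained without day 0 replicate 1 (adjusted p = 0.0343) or day 14 replicate 1 (0.0276), in a range of 0.0276 to 0.480. The day 21 call was lost without day 21 replicate 1 (0.152) or replicate 3 (0.0524) and without day 0 replicate 2, 3 or 4 (0.0780 to 0.0874), in a range of 0.00443 to 0.183. Exons of Sox9 overlap those of BC006965 on the other strand, and how the counting used the strand is not given in the sources used here.

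Runx2, the gene of the transcription factor needed to form bone (chr17:44806874-45125684, GRCm39), was counted rarely in any library. Day 0 held 1 count in replicate 2 and none in the other 3. Counts were 5, 9, 3 and 0 on day 7, 4, 13 and 12 on day 14, 6, 3, 6 and 10 on day 21, and 5, 9 and 0 on day 28. In CPM the libraries ran from 0 to 16.2, from 6.40 to 22.9, from 6.06 to 23.3 and from 0 to 14.9 at these 4 times, with means of 7.76 ± 6.72 (SD, n = 4) on day 7 and 11.6 ± 7.96 (n = 4) on day 21 against 0.299 ± 0.598 (n = 4) on day 0. All libraries of days 14 and 21 lay above those of day 0, while 1 library each of days 7 and 28 had no count. Because day 0 rests on 1 count, the ratio of pooled levels is wide, at 22.3-fold (95% exact counting interval 3.50 to 933) on day 7, 43.6 (7.22 to 1779) on day 14, 30.9 (5.06 to 1269) on day 21 and 21.4 (3.25 to 904) on day 28. The adjusted p was 0.0389, 0.0284, 0.0336 and 0.173 on the 4 days. The calls of Runx2 were lost without day 0 replicate 1, 3 or 4 on each of days 7, 14 and 21 (0.0647 to 0.0937). They were also lost without day 7 replicate 1, 2 or 3 or day 14 replicate 2 or 3 on day 7 (0.0508 to 0.145), without day 14 replicate 2 or 3 on day 14 (0.148 and 0.0744) and without day 21 replicate 4 on day 21 (0.0979). Over the alternatives that could test Runx2, the adjusted p ran from 0.0106 to 0.145 on day 7, 0.00593 to 0.176 on day 14 and 0.00799 to 0.0979 on day 21. With the mouse number of the labels as a block, which ties 3 day 0 libraries to 3 day 21 libraries, the day 21 value was 0.0601. Exons of Runx2 overlap those of Runx2os1 and Supt3 on the other strand.

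Col2a1, the gene of the main collagen of hyaline cartilage (chr15:97873483-97902689, GRCm39), had no count in any day 0 library and was present in every library of days 7 and 14. On day 7 it had 51, 42, 34 and 42 counts, or 90.8, 75.5, 67.8 and 67.8 CPM. On day 14 it had 14, 147 and 71 counts, or 22.4, 259 and 92.6 CPM. Later it was uneven, at 726, 5, 0 and 1 counts (859, 10.1, 0 and 2.33 CPM) on day 21 and at 1, 76 and 0 counts (1.44, 126 and 0 CPM) on day 28. The day 7 libraries were the most alike, the day 21 mean was carried by replicate 1, and the day 28 mean by replicate 2. Against a floor of 4.47 CPM, the highest that 3 counts give in a day 0 library, the level was at least 16.9-fold higher on day 7, 27.9-fold on day 14, 48.7-fold on day 21 and 9.48-fold on day 28. The adjusted p was 0.0203, 0.0284, 0.0102 and 0.183.

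Without day 21 replicate 1, the mean of Col2a1 on day 21 went from 218 ± 427 CPM (SD, n = 4) to 4.14 ± 5.28 CPM (n = 3), which is below the floor, and the adjusted p from 0.0102 to 0.367 (9.17e-45 to 0.367 over 28 alternatives). Without day 14 replicate 2, the mean on day 14 went from 125 ± 122 CPM (n = 3) to 57.5 ± 49.7 CPM (n = 2) and the call was lost (0.144). It was also lost there without any 1 of the day 0 libraries (0.0669 to 0.0745), in a range of 3.19e-34 to 0.207. The day 7 call was lost without day 0 replicate 2 (0.0504, range 9.9e-29 to 0.145), and the day 28 call was gained without day 21 replicate 1 (0.0466, range 2.79e-18 to 0.890). Without day 28 replicate 2 the day 28 mean fell from 42.4 CPM to 0.718 CPM.

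Other cartilage collagens were rare on day 7, while Col2a1 had 34 to 51 counts in each library. Col11a1 had 4, 2, 32 and 0 counts and was called higher than on day 0 (adjusted p = 0.0369). Col10a1 had 1, 0, 5 and 0 counts there and Col11a2 had 1, 0, 4 and 0. Col9a1 and Col9a2, chains of the collagen that coats collagen II fibrils, had no count in any day 7 library, Col9a3 had 1 count in 1 of them, and Chad had none. Matn1 and Cnmd, further markers of hyaline cartilage, had 1 count and no count over all 18 libraries. The macrophage list was at its highest on day 7, as given above, and the 8 skeletal muscle genes summed to 3.23 to 89.8 CPM there, and their part in the day 7 level of Col2a1 was not tested. In day 21 replicate 1, Col9a1, Col9a2 and Col9a3 had 16, 15 and 18 counts, Col11a2 had 69 and Matn1 had 1. Collagen IX genes did not follow the skeletal muscle genes on day 14, where replicate 3, with 7.83 CPM of skeletal muscle genes, had 20, 0 and 16 counts of the 3 and replicate 2, with 351 CPM, had 1, 2 and 1. Exons of Col2a1 overlap those of Gm46536 and Gm62600 on the other strand.

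Acan, the gene of aggrecan (chr7:78702964-78764847, GRCm39), rose on all 4 days and showed the largest ratio to day 0 among the 7 of the 10 genes that had a count in every day 0 library. Its level was 26.8, 17.9, 1.49 and 2.62 CPM on day 0 and 10.7, 66.5, 29.9 and 108 CPM on day 7. It reached 44.8, 270 and 150 CPM on day 14 and 299, 232, 196 and 370 CPM on day 21, and stood at 128, 69.5 and 51.1 CPM on day 28. Every library of days 14, 21 and 28 lay above all of day 0, and day 7 replicate 1 lay within the day 0 range. The ratio of means was 4.41-fold on day 7, 12.7-fold on day 14, 22.5-fold on day 21 and 6.78-fold on day 28. The log2 fold change was 2.13 ± 0.66 (adjusted p = 0.0221), 3.64 ± 0.67 (0.00132), 4.46 ± 0.66 (0.000101) and 2.75 ± 0.68 (0.0423).

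By mean level, Acan was ordered day 0, 7, 28, 14 and 21. Of the neighbours tested in that order, day 7 exceeded day 0, while no difference passed the test between days 28 and 7 (log2 difference 0.61, 95% interval -0.65 to 1.87, adjusted p = 0.569) or between days 21 and 14 (0.82, -0.38 to 2.03, 0.999). Days 28 and 14 were not tested against each other. In the 3 mouse numbers that the labels give to a library of both days, Acan went from 17.9 to 299 CPM, from 1.49 to 196 CPM and from 2.62 to 370 CPM between day 0 and day 21. The day 21 call was kept under every alternative, and the day 14 call under all but the mouse block, where the adjusted p was 0.0575 (1.47e-17 to 0.0575). The day 7 call was lost without day 0 replicate 3 or 4 (0.0728 and 0.0792) or day 7 replicate 2 or 4 (0.0602 and 0.131), in a range of 1.11e-06 to 0.190. The day 28 call, close to the threshold, was lost in 11 of 18 fits that each left out 1 library (0.0514 to 0.116), namely day 0 replicates 2, 3 and 4, day 7 replicate 2, day 14 replicate 3, day 21 replicates 1, 3 and 4 and each day 28 replicate, in a range of 5.12e-09 to 0.275. Without day 14 replicate 2 and day 21 replicate 1 together, Acan remained called on days 7, 14 and 21. Exons of Acan overlap those of Gm26633 on the other strand.

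Comp, the gene of a pentameric glycoprotein of cartilage and tendon that is also made in the arterial wall (chr8:70826192-70834716, GRCm39), did not change on day 7 beyond its spread and rose from day 14 on. Its level was 77.4, 14.3, 14.9 and 27.6 CPM on day 0 and 14.2, 41.3, 3.99 and 82.3 CPM on day 7. It was 84.8, 401 and 130 CPM on day 14, 239, 301, 155 and 272 CPM on day 21 and 172, 316 and 214 CPM on day 28. Every library from day 14 on lay above all of day 0 and of day 7. The ratio of means to day 0 was 1.06-fold on day 7, 6.12-fold on day 14, 7.20-fold on day 21 and 6.98-fold on day 28. The log2 fold change was 0.12 ± 0.61 (adjusted p = 0.924, 95% interval -1.13 to 1.38) on day 7, then 2.62 ± 0.61 (0.00816), 2.85 ± 0.59 (0.00279) and 2.81 ± 0.61 (0.0208).

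Comp was the single gene of the 10 called between day 14 and day 7, where it was higher by 2.49 ± 0.61 on the log2 scale (adjusted p = 0.0315) and 1.66% of all genes were called. Without day 14 replicate 2, the mean of Comp on day 14 went from 205 ± 171 CPM to 108 ± 32.3 CPM (n = 2), the call against day 0 was lost (0.197, range 1.07e-11 to 0.243) and that against day 7 was lost too (0.271, range 6.03e-10 to 0.309). The call against day 7 was also lost without day 7 replicate 1, 2 or 3 (0.0836 to 0.110). The day 21 call was kept under every alternative, and the day 28 call was lost without day 0 replicate 2, 3 or 4 or day 28 replicate 2 (0.0695 to 0.0792, range 1.61e-12 to 0.268). Exons of Comp overlap those of Gm51533 on the other strand.

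**Figure D3:**
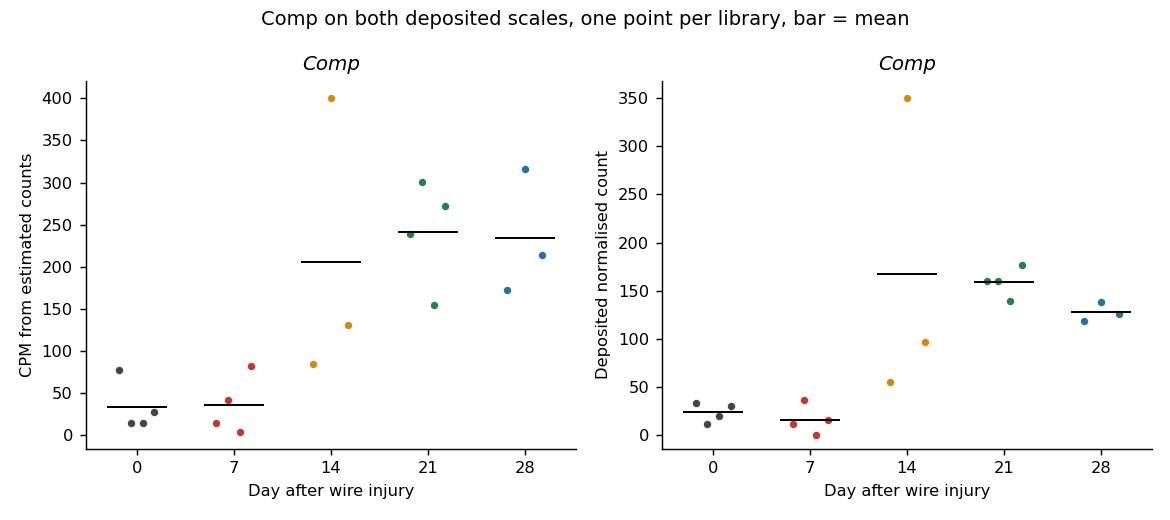
Comp in each library by day after wire injury (x axis), as CPM from the estimated counts (left y axis) and as the normalised count that the authors deposited (right y axis), with a bar at the mean. Day 0 and day 7 stay below days 21 and 28 on both scales, and the day 21 and day 28 libraries lie closer together on the deposited scale.

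Comp was also the gene of the list whose values depended most on which deposited table was read. The normalised table holds the estimated counts divided by a library factor and, for some genes, by a further factor, and for Comp the further factor ran from 0.469 to 3.24 across libraries. For Runx2 it ran from 0.752 to 1.05 and for Enpp1 from 0.919 to 1.01, and the other 7 genes had none. On that scale Comp averaged 23.9 ± 10.04 (SD) before injury, and 16.2 ± 14.9, 167 ± 159, 159 ± 15.5 and 128 ± 9.85 at the 4 later times, with the same calls in DESeq2.

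Chad, the gene of chondroadherin, a leucine-rich protein of cartilage that binds collagen (chr11:94455696-94459953, GRCm39), had no count in any of the 8 libraries of days 0 and 7. It had 0, 10 and 4 counts on day 14, 124, 0, 0 and 3 on day 21, and 2, 9 and 0 on day 28. In CPM the means at these 3 times were 7.62 ± 9.07, 38.4 ± 72.2 and 5.92 ± 7.90. Against the day 0 floor the level was at least 1.70-fold higher on day 14, 8.59-fold on day 21 and 1.32-fold on day 28, and 1 library of day 14, 2 of day 21 and 1 of day 28 were themselves at 0. Only day 21 was called (adjusted p = 0.0291, against 0.221 on day 14 and 0.325 on day 28). That call was lost in DESeq2 (0.166), with the mouse block (0.0610) and without any 1 of the 4 day 0 libraries (0.0566 to 0.0683), in a range of 2.99e-06 to 0.168. Without day 21 replicate 1, the day 21 mean of Chad fell from 38.4 CPM to 2.33 CPM. The highest library of each of days 14, 21 and 28 for Chad was also the highest of that day for Col2a1 and for Ibsp.

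**Figure D4:**
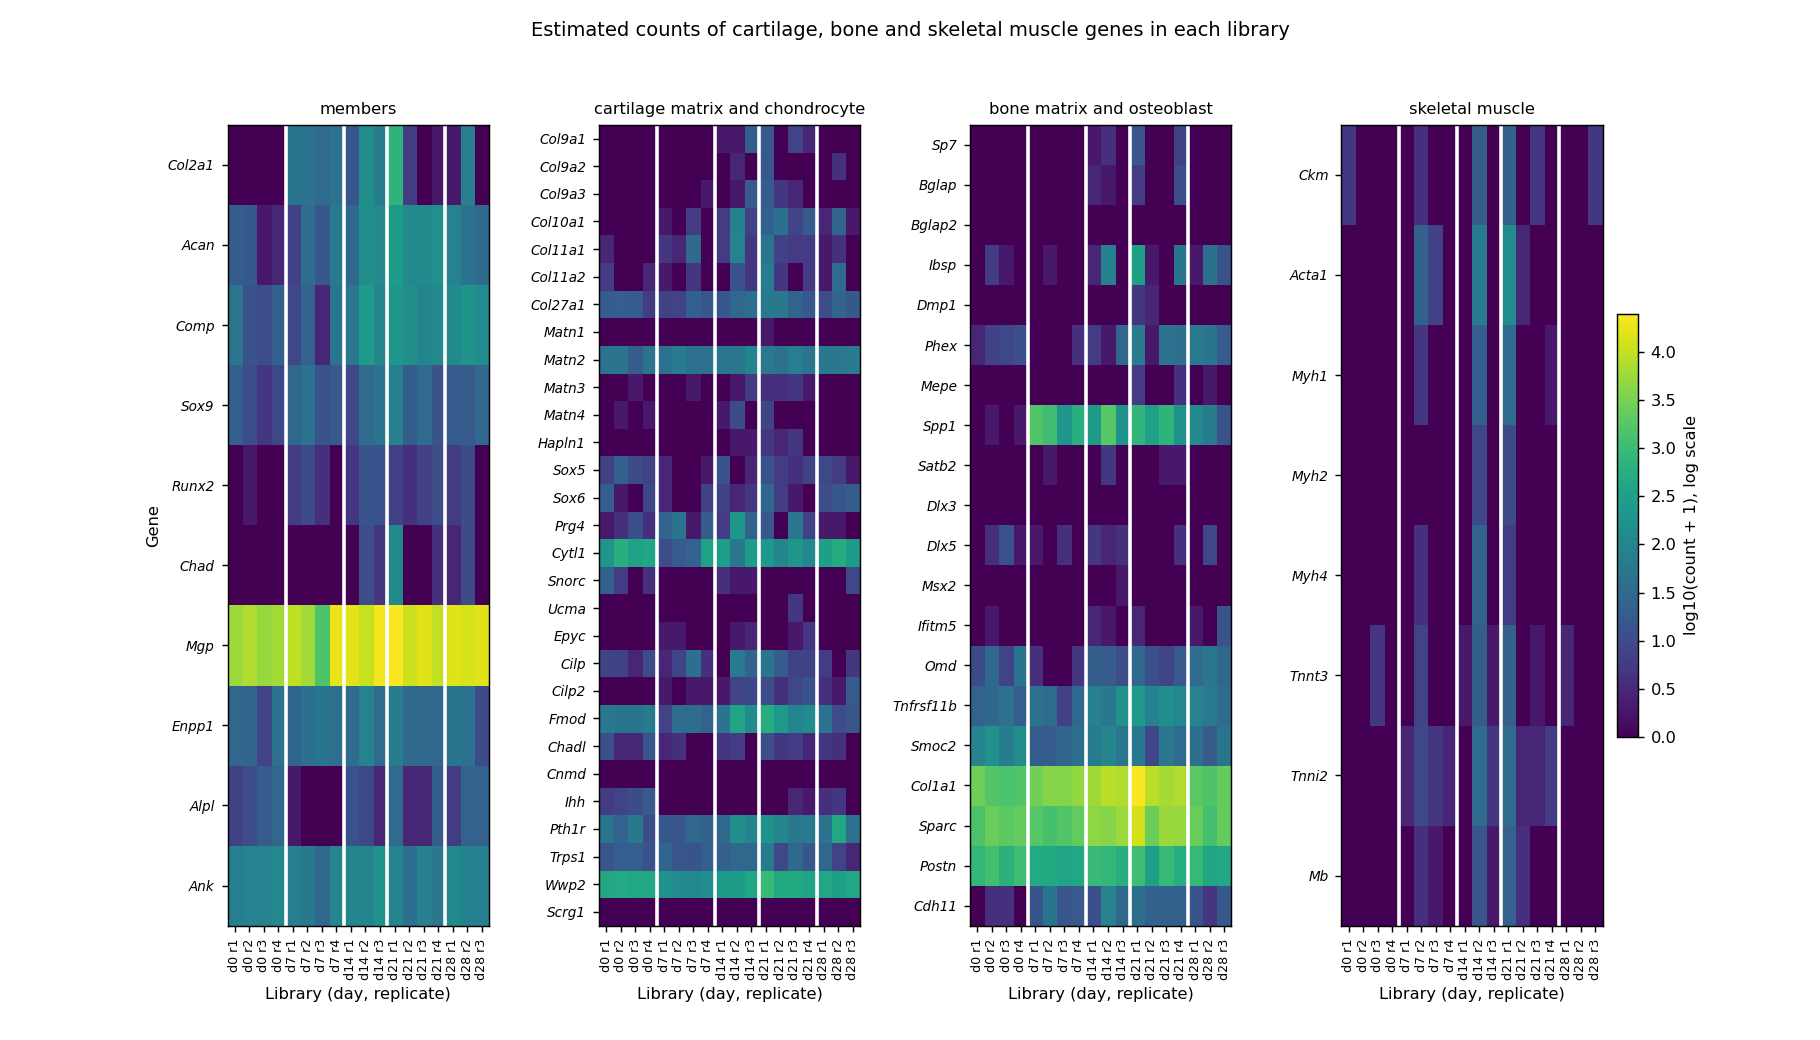
Estimated counts on a log10(count + 1) color scale for the 10 genes and for the cartilage, bone and skeletal muscle lists (y axis), in each of 18 libraries ordered by day (x axis, white lines between days). Day 14 replicate 2 and day 21 replicate 1 carry counts of all 8 skeletal muscle genes, and Col2a1 is present in every day 7 library while Chad and the collagen IX genes are dark there except for 1 count of Col9a3.

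Mgp, the gene of matrix Gla protein, the vitamin K-dependent inhibitor of arterial calcification (chr6:136849433-136852821, GRCm39), had the most counts of the 10 genes and rose on days 14, 21 and 28. Its level was 8427, 8834, 7718 and 8064 CPM on day 0 and 17042, 10913, 3116 and 29909 CPM on day 7. It was 26764, 18998 and 27261 CPM on day 14, 27879, 23835, 26458 and 22719 CPM on day 21 and 22302, 22937 and 24874 CPM on day 28. Day 0 was tight and lay wholly below days 14, 21 and 28, while day 7 spread to both sides of it. The ratio of means was 1.85-fold on day 7, 2.95-fold on day 14, 3.05-fold on day 21 and 2.83-fold on day 28. The log2 fold change was 0.88 ± 0.35 (adjusted p = 0.0785), 1.56 ± 0.37 (0.0105), 1.61 ± 0.36 (0.00479) and 1.50 ± 0.37 (0.0440).

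The day 7 value of Mgp turned on replicate 3, the lowest library of all, without which the mean went from 15245 ± 11316 CPM to 19288 ± 9695 CPM (n = 3) and the adjusted p to 0.000791 (0.000312 to 0.547 over 29 alternatives). Without day 7 replicate 4, the highest library, Mgp was instead called higher on day 14 than on day 7 (0.0369, range 0.0369 to 1) and on day 28 than on day 7 (0.0162, range 0.0162 to 0.498). The day 14 call was kept without each single library and lost with robust dispersion (0.0548) and with the mouse block (0.149), in a range of 2.76e-10 to 0.149. The day 21 call was kept under every alternative. The day 28 call lay close to the threshold and was lost in 13 of 18 fits that each left out 1 library (0.0506 to 0.116), the exceptions being day 7 replicates 3 and 4, day 14 replicate 1, day 21 replicate 2 and day 28 replicate 1, in a range of 1.51e-08 to 0.275. No difference between days 14 and 21 or between days 21 and 28 passed the test, with a log2 difference of 0.05 (95% interval -0.72 to 0.82) between days 21 and 14 and of -0.11 (-0.88 to 0.66) between days 28 and 21.

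Alpl, the gene of the phosphatase that removes pyrophosphate (chr4:137469039-137524102, GRCm39), was the single gene of the list that fell, and it did so on day 7 only among the days tested against day 0. It had 6, 10, 17 and 27 counts on day 0, or 8.93, 11.9, 25.3 and 35.4 CPM. On day 7 it had 1 count in replicate 1 and none in the other 3 libraries. It then had 12, 8 and 2 counts on day 14, 34, 2, 2 and 19 on day 21, and 5, 24 and 23 on day 28, or means of 12.0 ± 8.50, 22.9 ± 22.3 and 27.9 ± 17.98 CPM against 20.4 ± 12.3 CPM on day 0. Every day 7 library lay below every library of the other days, and days 14, 21 and 28 overlapped day 0. The ratio of pooled levels of day 7 to day 0 was 0.0219 (95% exact counting interval 0.000545 to 0.127), and the adjusted p was 0.00399. The fall held without each single library. Among the alternatives that tested Alpl, it was lost only with the mouse block (0.130, range 0.000203 to 0.130). With only days 0 and 7 in the fit, Alpl was too rare to test. In that fit 1 day 0 library was compared with day 7 directly, and the other 3 entered only by way of day 21. Day 14 stood to day 7 at a ratio of 25.2 (4.07 to 1038), which was not called (adjusted p = 0.108, range 0.0249 to 0.559). Between day 28 and day 7, Alpl was higher at a ratio of 60.4 (10.4 to 2432, adjusted p = 0.00419). On days 14, 21 and 28 the log2 difference from day 0 was -0.78 ± 0.90, 0.17 ± 0.80 and 0.44 ± 0.85, with adjusted p of 0.785, 0.941 and 0.857. The contractile smooth muscle list was also at its lowest on day 7, as given above, and its part in the level of Alpl was not tested. Exons of Alpl overlap those of Gm63526 on the same strand.

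Enpp1, the gene of the enzyme that makes pyrophosphate from ATP (chr10:24513812-24588057, GRCm39), was higher in mean on every injured day than on day 0 and was not called on any. Its level was 43.2, 31.1, 10.4 and 59.1 CPM on day 0, 44.5, 71.9, 99.7 and 63.0 CPM on day 7, and 52.8, 162 and 45.7 CPM on day 14. It was 82.8, 64.6, 51.0 and 62.8 CPM on day 21 and 71.8, 72.8 and 14.4 CPM on day 28. The days overlapped throughout. The log2 difference from day 0 was 0.95 (95% interval -0.07 to 1.96), 1.26 (0.19 to 2.32), 0.86 (-0.15 to 1.87) and 0.56 (-0.53 to 1.64), with adjusted p of 0.202, 0.184, 0.325 and 0.675.

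Ank, the gene of the membrane protein through which pyrophosphate leaves the cell (chr15:27466558-27598709, GRCm39), varied least around its day 0 level. Its mean was 128 ± 27.9 CPM before injury, and 114 ± 46.0, 187 ± 42.4, 114 ± 26.1 and 150 ± 31.9 CPM at the 4 later times. Libraries ran from 105 to 167 CPM on day 0 and from 55.8 to 236 CPM over the injured days, and each injured day overlapped day 0. Every day 14 library lay above every library of day 7 and of day 21. Neither difference was called (adjusted p = 0.377 and 0.999). The log2 difference from day 0 was -0.16 (95% interval -0.77 to 0.44), 0.55 (-0.09 to 1.19), -0.17 (-0.78 to 0.43) and 0.23 (-0.41 to 0.88), with adjusted p of 0.774, 0.406, 0.808 and 0.778. Exons of Ank overlap Mir7117 on the same strand.

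Between injured days, day 14 was tested against day 7, day 21 against day 14, and day 28 against days 21 and 7. Day 21 was not tested against day 7, nor day 28 against day 14. Of the pairs tested, only those against day 7 held calls, for Comp on days 14 and 28 and for Alpl on day 28. Between day 21 and day 14 no gene of the list was called, and edgeR called 0% of all genes, of which 421 had an unadjusted p under 0.05. Among these was 1 gene of the list, Ank (0.0292, lower on day 21). DESeq2 called 43 genes there and none of the 10. Between day 28 and day 21 no gene of the list was called either, where 0.679% of all genes were, and Acan, lower in every day 28 library than in every day 21 library, had an unadjusted p of 0.00955 and an adjusted p of 0.173 with a log2 difference of -1.72 ± 0.61. Between day 28 and day 7, Comp and Alpl were called higher, Comp by 2.69 ± 0.61 on the log2 scale (adjusted p = 0.00413), where 6.4% of all genes were called higher.

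Wider lists of the same biology, with the 10 genes removed, moved less evenly. Of the cartilage matrix and chondrocyte list, 13 of 29 genes could be tested, and 1 was higher and 1 lower on day 7 (11.3% and 8.53% of all tested genes), 4 and 0 on day 14 (4.8% and 1.42%), 3 and 0 on day 21 (5.92% and 2.93%) and none on day 28 (0.97% and 0.369%). The list summed to 1356 to 1522 CPM on day 0 and, lower in every library, to 556 to 1015 CPM on day 7. It summed to 1198 to 2522, 1773 to 2790 and 1368 to 2342 CPM on days 14, 21 and 28. Without the pair of libraries that stood apart, 14 genes of this list could be tested, and 0 were higher and 2 lower on day 7, none was called on day 14, and 3 were higher on day 21. Col10a1, the collagen of hypertrophic cartilage, had no count on day 0, 5, 84 and 6 counts on day 14 and 22, 40, 7 and 17 on day 21 (adjusted p = 0.00518 and 0.00635, or 0.164 and 0.00685 without the pair). Fmod, which encodes the matrix protein fibromodulin, was higher by 1.96 ± 0.55 on day 14 (adjusted p = 0.0311) and by 2.37 ± 0.53 on day 21 (0.00557) on the log2 scale, or with adjusted p of 0.755 and 0.00932 without the pair. Col11a1 had 2 counts on day 0, and 4, 2, 32 and 0 on day 7 (0.0369), 5, 87 and 4 on day 14 (0.0139) and 48, 6, 5 and 5 on day 21 (0.0432). Its day 14 value was 0.531 when day 14 replicate 2 was left out, and with day 21 replicate 1 left out it was too rare to test. The levels of both collagens were highest on day 14 in replicate 2. Wwp2, a ubiquitin ligase gene whose intron holds a cartilage microRNA, fell by 1.32 ± 0.20 on day 7 on the log2 scale (3.22e-05).

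Of the bone matrix and osteoblast list, 10 of 20 genes could be tested, and 3 were higher and 2 lower on day 7, 5 and 0 on day 14, 7 and 1 on day 21 and 1 and 0 on day 28. Without that pair, 5 were higher and 0 lower on day 21, and the other counts of this list were as given. The shares of all genes are those given for the cartilage list. Most of the genes that rose are also made by fibroblasts, smooth muscle cells or macrophages, and which cells their counts came from was not tested. Col1a1, the main collagen of bone and of scar, was higher by 2.84 ± 0.28 on the log2 scale on day 21 (adjusted p = 4.05e-07), and Sparc, a collagen-binding protein gene, by 1.92 ± 0.26 (2.79e-05). Spp1, the gene of osteopontin, had 0, 1, 0 and 1 counts on day 0 and 1576, 1130, 194 and 577 on day 7 (2.91e-07). Omd and Smoc2 encode matrix proteins and were lower on day 7. Omd fell by 3.24 ± 0.77 (0.0035) and Smoc2 fell by 1.78 ± 0.42 (0.00304) on the log2 scale. Sp7, Bglap, Dmp1 and Mepe, genes close to osteoblasts and osteocytes, were at 0 in all libraries of days 0 and 7. They had 14, 5, 4 and 5 counts in day 21 replicate 1 and 6, 10, 0 and 3 in day 21 replicate 4. Ibsp, also on this list, had 86 counts in day 14 replicate 2 and 41 in day 28 replicate 2. It had 321 and 50 in day 21 replicates 1 and 4, and 0 to 12 in the other libraries.

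Among genes that control pyrophosphate, phosphate and calcification, 13 of 16 could be tested, with 2 higher and 2 lower on day 7, where 11.3% and 8.53% of all genes were, 3 and 0 on day 14 (4.8% and 1.42%), 3 and 0 on day 21 (5.92% and 2.93%) and 1 and 0 on day 28 (0.97% and 0.369%). These counts were the same without the pair. Spp1 is also on this list. Tnfrsf11b, which encodes osteoprotegerin, was higher by 2.53 ± 0.41 on the log2 scale on day 21 (adjusted p = 0.000255), and Fbn1, the gene of fibrillin-1, by 1.36 ± 0.25 on day 14 (0.00142). Xpr1, the phosphate exporter gene, fell by 1.62 ± 0.32 on day 7 (0.000576) and Slc20a2, a phosphate importer gene, fell by 1.35 ± 0.39 (0.0155). Phospho1, which releases phosphate in mineralizing vesicles, had no count in any library.

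In the BMP signalling list, the pathway that drives cartilage and bone formation, 9 of 24 tested genes (of 31) were lower on day 7. None was higher there, where 8.53% of all genes were called lower and 11.3% higher. On day 21, 1 gene, Acvr1, was higher, where 5.92% of all genes were. Twsg1, a secreted BMP modulator gene, fell by 1.29 ± 0.27 on day 7 (adjusted p = 0.000919), Id2, a target gene, fell by 1.71 ± 0.40 (0.00261) and Smad6, an inhibitor gene, fell by 1.97 ± 0.48 (0.0044), all on the log2 scale. The median log2 fold change of the list was -0.81, -0.24, -0.16 and -0.28 on days 7, 14, 21 and 28. Acvr1, a receptor gene, was higher by 1.81 ± 0.53 on day 21 on that scale (0.0313, or 0.0837 without the pair).

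In the osteoclast list, 9 of 15 genes could be tested. On day 7, 4 were higher and 0 lower (11.3% and 8.53% of all tested genes), and on day 14, 1 and 2 (4.8% and 1.42%). On day 21 they were 3 and 1 (5.92% and 2.93%), and on day 28 none (0.97% and 0.369%). Ctsk, the gene of the collagen-cutting protease cathepsin K, was higher by 3.58 ± 0.63 on the log2 scale on day 21 (adjusted p = 0.000676), Tcirg1, a proton pump gene, by 2.50 ± 0.51 on day 7 (0.00081) and Acp5, an acid phosphatase gene, by 3.22 ± 0.69 on day 7 (0.00142). Tnfrsf11a, the receptor gene that osteoclast precursors need, fell by 2.64 ± 0.67 on day 14 (0.0156) and Itgb3, an integrin gene, fell by 1.53 ± 0.41 (0.0236), and without the pair neither was called (0.107 and 0.0903). Calcr and Oscar, defining osteoclast genes, had no count in any library. Macrophages also make many of the others, and which cells these counts came from was not tested.

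In the tendon and ligament list, 3 of 6 genes could be tested, and 1, 2, 1 and 0 were higher on days 7, 14, 21 and 28. Of all tested genes, 11.3%, 4.8%, 5.92% and 0.97% were called higher on these days. Thbs4, a relative of Comp, had no count on day 0, 1, 8, 22 and 8 counts on day 7 (adjusted p = 0.0174) and 0, 71 and 6 on day 14 (0.0148). Its day 14 value was 0.340 without day 14 replicate 2, and without the pair it was too rare to test. Fmod is also on this list. Tnmd and Mkx, defining tendon genes, had 0 to 7 counts and 0 to 1 counts per library.

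The genes whose log2 CPM followed each of the 10 most closely over the 18 libraries are given by Pearson's r as a description, the libraries sharing days and depth. For Mgp they were Mxra8 (0.95), Frzb (0.91), a secreted Wnt antagonist gene, and C1ra (0.87). For Acan they were Cd248 (0.89), Plekha4 (0.87) and Nrp1 (0.86), and for Comp Tsc22d3 (0.86), Mxra8 (0.86) and Gdf10 (0.84). Mxra8 was thus near both Mgp and Comp. For Chad they were Col11a2 (0.85), Ibsp (0.85) and Adamts10 (0.70). For Col2a1 they were genes of leukocytes and of cell shape, Lsp1 (0.86), Vav1 (0.86) and Bin3 (0.84). After each day's mean was removed, these 3 stood at 0.75, 0.79 and 0.68. For Sox9 they were Apobec1 (0.86), Stat2 (0.81) and Metrnl (0.81), and for Runx2 Gpr176 (0.84), Washc4 (0.83) and Ciita (0.82). For Alpl they were Carns1 (0.89), Zc2hc1a (0.84) and Fmo1 (0.84), for Enpp1 Polr3d (0.85), Tgfbr2 (0.79) and Cdk16 (0.79), and for Ank Wbp11 (0.77), Fgf2 (0.76) and App (0.76). Among the 10 genes themselves, Comp with Mgp (0.80) and Acan with Comp (0.79) were closest over all libraries, while within days, after each day's mean was removed, Col2a1 with Chad was closest (0.91, and 0.64 over all libraries).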

How the data were processed

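Per the labels and the study's methods, reads were stripped of PCR copies by their molecular identifiers and quantified with Salmon 1.9.0 on mm39. The authors deposited 2 tables, estimated counts of each gene in whole numbers without normalization, and a normalised signal from DESeq2 1.36.0. The annotation release and the use of the strand in counting are not given in the sources used here. The day on the label set each library's group.

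The tests used edgeR 4.0.16 in R 4.3.3 on the estimated counts (filterByExpr by day, TMM, quasi-likelihood test with day as the only term over 18 libraries, Benjamini-Hochberg over 10312 genes, threshold 0.05). All differences named are from this fit unless another is stated, and the steps were tested on simulated data. Alternatives were DESeq2 1.42.0, other scalings, filters of at least 1 count or of 20 counts in 3 libraries, robust dispersion, blocks, only the days compared, and fits leaving out each library once. A fit without day 14 replicate 2 and day 21 replicate 1, and DESeq2 run with the factors found in the deposited signal, were chosen after seeing the data. Libraries of 1 day differed beyond sampling noise in all 24 pairs. In 3 cases a day 0 library carries the mouse number of a day 21 library, and the residuals of these pairs correlated at -0.00669 to 0.0554. The study's methods name the uninjured right carotid as the control vessel, and whether these day 0 vessels came from the injured mice that share their number is not given in the sources used here.

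The 10 genes and the lists were chosen with earlier results of these data known. The text names each of the 10 genes, up to 3 called genes per list and direction by smallest p, and the 3 genes that follow each of the 10 most closely in log2 CPM (prior count 2). List genes named for being at or near 0 counts, and Ibsp, Acta1, Sp7 and the collagen IX and XI genes, were named after their values were seen. Gene positions are from GENCODE vM39 on GRCm39 and promoter windows from RefSeq on GRCm38.p6, which are different builds. The study's single-cell libraries were not used here.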

Additional observations from a re-analysis of the deposited data

Results flagged for a closer look

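In 27 groups of 4 libraries with a count, 4 held 1 library far from the other 3. Chance flags about 1 group in 20 for normally distributed values, a shape that CPM from few counts need not have. The rate does not apply to 2 of the 4, where 1 count against 3 libraries without a count always stands apart. Col2a1 was at 859 CPM in day 21 replicate 1, against 0 to 10.1 CPM in the other day 21 libraries. Chad was at 147 CPM in the same library, against 0 to 6.98 CPM. Runx2 was at 1.20 CPM in day 0 replicate 2, which is 1 count, with no count in the other day 0 libraries. Alpl was at 1.78 CPM in day 7 replicate 1, which is also 1 count, with none in the other day 7 libraries. For Col2a1 and Chad, skeletal muscle genes were high in the same library (331 CPM summed over 8 genes, against 11.5 to 14.1 CPM in the other day 21 libraries), and their part in the 2 values was not tested.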

How the results depend on the processing

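Of the 80 fold changes (10 genes in 8 comparisons of days), none of the 23 called changed sign under any alternative run, and 25 of the 57 that were not called did so under at least 1, none of them being called with the opposite sign. Counts are of the 10 genes called. Over all genes, day 7 calls against day 0 were 2041 of 10312 in the main fit and 2049 with robust dispersion. They were 1911 with the replicate block and 1047 with the mouse number block. On day 14 these settings called 641, 625, 514 and 199 genes, and 233 of 10898 were called without day 14 replicate 2. Against day 0, robust dispersion called 3 on day 7, 3 on day 14 and 0 on day 28 (in place of 5, 5 and 3), 0 between days 14 and 7 and 3 in the test of any difference. The replicate block called 3 on day 7, losing Sox9 (adjusted p = 0.0637) and Runx2 (0.0554), and lost Chad on day 21 (0.0867) and Runx2 on day 14 (0.05002), and these numbers are no pairing, as same-numbered libraries correlated in their residuals at a median of -0.00570 (33 pairs). The mouse number block called 1 on day 7, 1 on day 14 and 0 on day 28, where by its construction 1 day 0 library carries the comparison, and 5 on day 21. Without day 14 replicate 2 and day 21 replicate 1, 9 of the 10 genes were tested and 3 were called on day 7, 3 on day 14, 3 on day 21 and 0 between days 14 and 7. With only the days compared in the fit, where fewer libraries and genes enter, 1 was called on day 7, 4 on day 21, 0 on day 14 against 7, 1 on day 28 against 21 and 1 on day 28 against 7. On day 7 that fit tested 7 of the 10 genes, and it called 1645 of 8200 genes in all. With no filter, 4 were called on day 14 against 7 and 2 on day 28 against 21. Leaving out 1 library at a time gave 2 to 5 on day 7, 2 to 6 on day 14, 4 to 7 on day 21, 0 to 3 on day 28, 0 to 2 between days 14 and 7, 0 on day 21 against 14 and on day 28 against 21, 2 to 3 on day 28 against 7, and 4 to 7 for any difference. The lowest counts came without day 0 replicate 3 or 4 or day 7 replicate 2 on day 7, without day 14 replicate 2 on day 14, without day 0 replicate 3 or 4 or day 21 replicate 1 on day 21, and without day 0 replicate 2, 3 or 4 or day 28 replicate 2 on day 28. Where no other value is given, the cause was not tested. DESeq2, RLE scaling, totals without TMM and the stricter filter, which tests 8 of the 10 genes, left every count within 1.5 times. Depth limits Runx2, Chad and Alpl most, since 3 counts stood for 3.55 to 6.98 CPM.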
